A study of Mus musculus with 19 samples.

Results

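Pentoxifylline treatment was set directly against loss of the NF-kB subunit c-Rel in stimulated mouse Tregs, the Foxp3-positive T cells that hold immune responses in check. The comparison used the 2 RNA sequencing libraries of wild-type (WT) Tregs with pentoxifylline and the 2 libraries labelled c-Rel-/- (deficient in c-Rel), which are 4 of the 19 libraries of the series, and every gene with library values was included. The first group came from C57Bl/6 Foxp3-CRE-YFP mice and was cultured with pentoxifylline at 500 ug/mL. The second came from C57Bl/6 Foxp3-CRE-YFP mice with floxed c-Rel alleles, in which Cre made under the Foxp3 gene removes c-Rel in Tregs. A further group of 2 WT libraries with water, the diluent of the drug, is given beside them as the common reference. All 6 libraries were made from YFP-positive Tregs after 16 hours of stimulation in culture. The stimulus combined plate-coated antibody to CD3 (5 ug/mL) with antibody to CD28 (1 ug/mL) and 10 ng/mL of interleukin 2. The labels do not say whether the c-Rel-/- cells also received water, and the 2 groups compared differ in drug and in genotype, so effects of the drug and of the allele cannot be told apart in a single difference. Nor do the labels state that the replicates came from separate animals, so p-values set differences against the spread between these libraries only. Throughout, "higher" and "lower" describe the pentoxifylline libraries relative to those labelled c-Rel-/-.

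NF-kB is a family of transcription factors that T cells switch on through the T cell receptor and CD28, and c-Rel, encoded by Rel, is a member found mainly in lymphocytes that contributes to the induction of Foxp3, the lineage factor of Tregs. Pentoxifylline is a methylxanthine that inhibits phosphodiesterases, the enzymes that degrade cyclic nucleotides, and cyclic AMP in T cells acts through protein kinase A and the factors CREB and CREM. The series set out to compare genetic with chemical inhibition of NF-kB subunits, and the direct comparison asks where treatment with the drug and loss of the subunit leave stimulated Tregs in different states.

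Levels are in RPKM as deposited by the authors, a unit that scales the reads of a gene by its length and by the reads of the library. Median-of-ratios size factors, each from the median ratio of a library to the genes' means over the libraries, were 1.01 in all 6 libraries. The deposited values were thus already on a common scale, and how they were scaled is not stated. Differences are those of group means on the log2(RPKM + 0.5) scale, pentoxifylline minus c-Rel-/-, which understates changes of weakly expressed genes. They were tested in limma with Benjamini-Hochberg adjustment over 9945 genes, and a gene was called when the adjusted p was under 0.05. A bare value in brackets after a gene name is such a log2 difference. Sequencing depth is stated as 30 M reads for each sample, and between 9469 and 9751 genes reached 1 RPKM in each stimulated library. From the steps between low values the scaling factors relative to water replicate 1 were 0.793 and 0.682 with pentoxifylline, 0.915 and 0.853 in the libraries labelled c-Rel-/-, and 1 and 0.949 with water. They follow sequencing depth only if the deposited values were scaled by reads. The T cell genes Cd3e, Cd4 and Foxp3 were above 100 RPKM in all 6 libraries. Xist encodes the RNA of the inactive X chromosome. It stood at 0.00965 and 22.3 RPKM with pentoxifylline, at 0.01115 and 0.0209 in the libraries labelled c-Rel-/- and at 0.0153 and 18.7 with water. The Y-linked gene Ddx3y stood at 39.65 and 6.33 RPKM with pentoxifylline, at 23.7 and 27.7 in c-Rel-/- libraries and at 27.8 and 2.73 with water. Pentoxifylline replicate 1 therefore shared the low Xist and high Ddx3y levels of both libraries labelled c-Rel-/-, and replicate 2 did not. Leaving out replicate 2 makes the libraries compared alike in these genes but leaves 1 pentoxifylline library. What part the difference in these genes had in the calls was not tested.

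Rel was examined before all other genes, since its loss defines a group. Located at chromosome 11, 23736847 to 23770970, minus strand of GRCm38, it stood at 93.5 and 79.9 RPKM with pentoxifylline, at 2.44 and 25 RPKM in the libraries labelled c-Rel-/- and at 55.05 and 55.8 RPKM with water. Both libraries labelled c-Rel-/- lay below all 4 others, but replicate 2 held about 10 times as much Rel as replicate 1. The difference of Rel was 3.33 (SE 0.83, limma adjusted p = 0.0141), and it missed the threshold without pentoxifylline replicate 1 (adjusted p = 0.0616). Rela (chromosome 19, 5637483 to 5648130, plus strand) encodes the subunit p65. It stood at 91 and 85.55 RPKM with pentoxifylline, at 109 and 97.1 in the libraries labelled c-Rel-/- and at 83.7 and 92.1 with water (log2 difference -0.22, SE 0.14, adjusted p = 0.216). Foxp3 (chromosome X, 7573644 to 7595245, plus strand) stood at 218 and 274 RPKM with pentoxifylline, at 107 and 193 in the libraries labelled c-Rel-/- and at 289.6 and 237 with water (log2 difference 0.77, SE 0.28, adjusted p = 0.0588). The groups did not overlap for Foxp3, but it was not called. Its difference was 1.19 without c-Rel-/- replicate 2, and leaving out that library, which lay nearer to pentoxifylline, had to widen it.

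Between these groups, ribosome biogenesis genes were lower with pentoxifylline in 36 of 36 tested, helper cytokine genes in 15 of 22 and chemokine genes in 5 of 9. Mitosis genes were higher in 25 of 37 tested, phosphodiesterase genes in 6 of 11 and quiescence genes in 10 of 23. Of the 9945 genes tested 4815 were called, or 48.4%, with 2148 higher (21.6%) and 2667 lower (26.8%), and the median difference over all of them was -0.00. The equal size factors of the libraries nearly fixed this median in advance. Counts of list members below stand beside 48.4% called over all genes. Of the 4815 called genes 2185 differed by over 2-fold, 824 higher and 1361 lower. The count was 3027 without pentoxifylline replicate 1, with 1140 higher and 1887 lower, and 1315 were higher without c-Rel-/- replicate 1. Under each of the 14 other settings tried 2561 genes kept their call and direction, 942 higher and 1619 lower. The mean of the water libraries lay nearer to that of the libraries labelled c-Rel-/- in 4415 of the 4815 called genes, or 91.7%, and nearer to that of the pentoxifylline libraries in 400. That share was not counted among the genes not called, so no background stands beside it.

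The 8 largest rises with pentoxifylline included 4 genes of G protein and cyclic nucleotide signalling. Rgs2 (chromosome 1, 143999338 to 144004161, minus strand) shortens signals of G protein-coupled receptors. It stood at 267 and 189 RPKM with pentoxifylline, at 8.22 and 19.2 in the libraries labelled c-Rel-/- and at 27.1 and 22.1 with water (log2 difference 4.10, SE 0.36, adjusted p = 0.000347). Gng4 (chromosome 13, 13784059 to 13827896, plus strand) encodes a G protein gamma subunit. It stood at 16.8 and 25.3 with pentoxifylline, at 0.189 and 0.920 in those labelled c-Rel-/- and at 1.255 and 1.37 with water (log2 difference 4.42, SE 0.36, adjusted p = 0.00032). Ramp3 (chromosome 11, 6658521 to 6677475, plus strand) partners receptors of the calcitonin family that signal through cyclic AMP. It stood at 236 and 236 with pentoxifylline, at 13.7 and 19.3 in those labelled c-Rel-/- and at 26.2 and 30.6 with water (log2 difference 3.82, SE 0.18, adjusted p = 0.000298). In all 3 genes both pentoxifylline libraries stood more than 5-fold above every other library.

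Pde2a (chromosome 7, 101421691 to 101512827, plus strand) encodes a phosphodiesterase of cyclic AMP and cyclic GMP. It stood at 154 and 92.2 RPKM with pentoxifylline, at 10.5 and 8.03 in the libraries labelled c-Rel-/- and at 19.5 and 13 with water (log2 difference 3.63, SE 0.28, adjusted p = 0.000301). Adck3, now named Coq8a (chromosome 1, 180165238 to 180199602, minus strand), which serves coenzyme Q synthesis, stood at 66.15 and 53.2 RPKM with pentoxifylline, at 2.45 and 5.24 in c-Rel-/- libraries and at 8.25 and 7.88 with water (log2 difference 3.86). Trf (chromosome 9, 103204001 to 103230444, minus strand) encodes the iron carrier transferrin. It stood at 32.1 and 29.9 RPKM with pentoxifylline, at 0.771 and 4.135 in c-Rel-/- libraries and at 4.35 and 4.75 with water (log2 difference 3.70). For these 3 genes the water libraries lay nearer to those labelled c-Rel-/- than to pentoxifylline. Slc15a2 (chromosome 16, 36750177 to 36784962, minus strand) encodes a peptide transporter. It stood at 76.4 and 83.7 with pentoxifylline, at 1.79 and 12.3 in those labelled c-Rel-/- and at 37.6 and 26.9 with water (log2 difference 3.90, SE 0.67, adjusted p = 0.00331). Igj, now named Jchain (chromosome 5, 88519809 to 88527891, minus strand), the joining chain of secreted immunoglobulin, stood at 16.7 and 4.24 RPKM with pentoxifylline, at 0.309 and 0.0255 in c-Rel-/- libraries and at 10.3 and 15.65 with water (log2 difference 3.79, SE 0.56, adjusted p = 0.00177). Slc15a2 and Igj were thus lowest in the libraries labelled c-Rel-/-, with water nearer to pentoxifylline.

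**Figure D1:**
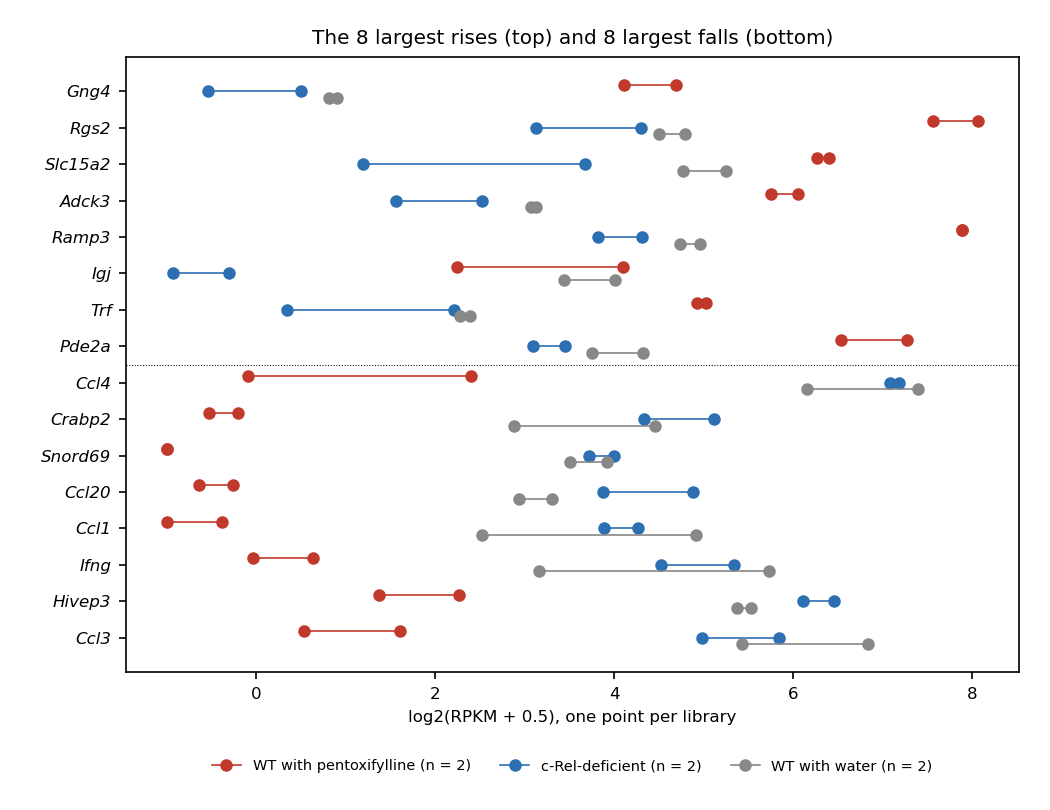
Level of the 8 largest rises and 8 largest falls on the log2(RPKM + 0.5) scale (horizontal axis), with 1 point per library and a line joining the 2 libraries of a group. The genes were chosen to have no overlap between the red pentoxifylline and the blue c-Rel-/- points, and the grey water mean is nearer to the blue mean in all 16 genes but Slc15a2 and Igj.

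The 8 largest falls held 4 chemokine genes. Ccl4 (chromosome 11, 83662584 to 83664683, plus strand) attracts macrophages and T cells. It stood at 0.437 and 4.77 RPKM with pentoxifylline, at 145 and 135 in the libraries labelled c-Rel-/- and at 70.9 and 168 with water (log2 difference -5.98, SE 0.74, adjusted p = 0.000937). Ccl3 (chromosome 11, 83647844 to 83649355, minus strand), its neighbour and close relative, stood at 0.948 and 2.545 with pentoxifylline, at 31.2 and 56.6 in those labelled c-Rel-/- and at 42.6 and 113 with water (log2 difference -4.34, SE 0.53, adjusted p = 0.000887). Ccl20 (chromosome 1, 83116766 to 83119167, plus strand) encodes the ligand of Ccr6. It stood at 0.144 and 0.336 with pentoxifylline, at 14.2 and 29 in those labelled c-Rel-/- and at 9.38 and 7.17 with water (log2 difference -4.83, SE 0.34, adjusted p = 0.000298). All 3 were under 5 RPKM in both pentoxifylline libraries and above 7 RPKM in the other 4. Ccl1 (chromosome 11, 82176657 to 82305690, minus strand), the ligand of Ccr8, was listed at 0 in pentoxifylline replicate 1 and at 0.265 in replicate 2, against 14.3 and 18.7 in the libraries labelled c-Rel-/- and 5.25 and 29.6 with water. RefSeq gives Ccl1 a shorter span, 82176666 to 82179812, and its promoter window below starts from that span.

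Ifng (chromosome 10, 118441046 to 118445892, plus strand) encodes the cytokine interferon gamma. It stood at 0.476 and 1.05 RPKM with pentoxifylline, at 22.4 and 40.0 in the libraries labelled c-Rel-/- and at 8.42 and 52.4 with water (log2 difference -4.63, SE 0.74, adjusted p = 0.0024). Crabp2 (chromosome 3, 87948666 to 87953376, plus strand) carries retinoic acid. It stood at 0.192 and 0.372 with pentoxifylline, at 34.2 and 19.6 in those labelled c-Rel-/- and at 6.85 and 21.4 with water (log2 difference -5.09, SE 0.49, adjusted p = 0.000436). Hivep3 (chromosome 4, 119733784 to 120138045, plus strand) encodes a large zinc finger protein that binds kappa B-like sites. It stood at 2.10 and 4.30 with pentoxifylline, at 87.5 and 68.3 in those labelled c-Rel-/- and at 40.9 and 45.8 with water (log2 difference -4.46, SE 0.28, adjusted p = 0.000298). The water libraries ranged widely for Ifng and Crabp2, and still stayed above both pentoxifylline libraries. Snord69 (chromosome 14, 31014287 to 31014366, minus strand), a small nucleolar RNA that guides modification of ribosomal RNA, was listed at 0 in both pentoxifylline libraries, against 12.7 and 15.4 RPKM in the libraries labelled c-Rel-/- and 10.8 and 14.7 with water. It lies on the same strand within an intron of Gnl3 (bases 31014228 to 31014589), a gene of the nucleolus that was also lower and is described below, and the part of host RNA in its value was not tested. Because RPKM divides by gene length, few reads of so short a gene give such values.

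The authors' deposited table holds no direct contrast of drug and genotype, but it gives each against the same water libraries. In the authors' deposited table Rgs2 had a log2 fold change of 3.21 with pentoxifylline and of -1.23 in the c-Rel-/- group, and Gng4 had 3.58 and -1.45. For Lag3, an inhibitory receptor, the authors' deposited table gives -3.15 with pentoxifylline and 1.16 in the c-Rel-/- group, and for Igfbp4, which binds insulin-like growth factors, -2.01 and 2.13. By the authors' deposited table Ccl4 had -3.74 and 0.15, Igj had -0.15 and -5.17, and Slc15a2 had 1.16 and -2.81. Snord69, among the largest falls above, had only -1.30 with pentoxifylline there and 0.06 in the c-Rel-/- group. Its fall against water did not pass 0.05 once the authors' p-values were adjusted by Benjamini-Hochberg. These values share their water libraries and are given side by side only.

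Promoter windows from RefSeq (GRCm38.p6, from 250 bases before to 50 bases after the start of a transcript) were available for 7930 of the 9945 tested genes and 12 of the 16 genes above. They were searched on both strands for TGACGTCA, the full cyclic AMP response element that CREB and CREM bind, for its half-site TGACG, which the full element contains, for the AP-1 site TGANTCA and for GGANNTTCC, which covers part of the kappa B consensus. The windows of Rgs2, Ccl1 and Ifng are shown because they are from a large rise and 2 large falls and hold matches, in capitals on either strand (CGTCA where the half-site is on the other one), to the half-site (Rgs2 and Ifng) or to the kappa B pattern (Ccl1).
Rgs2 (chr1:144004100-144004399, minus strand): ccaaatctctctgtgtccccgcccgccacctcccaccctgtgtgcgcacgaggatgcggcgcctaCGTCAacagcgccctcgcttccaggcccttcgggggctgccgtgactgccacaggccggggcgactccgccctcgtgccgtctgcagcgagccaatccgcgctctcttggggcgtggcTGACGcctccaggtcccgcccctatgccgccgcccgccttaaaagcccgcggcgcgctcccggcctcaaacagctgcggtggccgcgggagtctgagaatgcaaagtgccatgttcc
Ccl1 (chr11:82179763-82180062, minus strand): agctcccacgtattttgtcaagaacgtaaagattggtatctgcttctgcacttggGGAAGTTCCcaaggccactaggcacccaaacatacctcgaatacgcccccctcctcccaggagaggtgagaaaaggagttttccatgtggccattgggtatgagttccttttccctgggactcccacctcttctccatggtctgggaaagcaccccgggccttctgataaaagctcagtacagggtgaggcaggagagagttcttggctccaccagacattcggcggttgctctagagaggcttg
Ifng (chr10:118440796-118441095, plus strand): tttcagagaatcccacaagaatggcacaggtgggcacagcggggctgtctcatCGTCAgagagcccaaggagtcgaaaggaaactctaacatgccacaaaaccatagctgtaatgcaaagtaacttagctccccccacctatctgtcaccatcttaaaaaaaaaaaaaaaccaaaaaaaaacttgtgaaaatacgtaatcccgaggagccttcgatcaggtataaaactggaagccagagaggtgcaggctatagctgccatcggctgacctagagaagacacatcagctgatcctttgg
The Rgs2 window held 2 half-sites, which begin 185 and 67 bases before the start, the Ifng window held 1 at 197 bases before it, and the Ccl1 window held 1 kappa B match at 195 bases before it. None of the 12 genes had the full element. The half-site was present in 5 of the 7 largest rises with a window and in 1 of the 5 largest falls. These are counts of few genes chosen by their values, with no test. Over all tested genes with a window, the half-site was present in 37.9% of those called higher, in 37.7% of those called lower and in 37.2% of those not called. The full element was present in 3.91%, 3.29% and 4.13% of the same sets, the AP-1 site in 5.67%, 5.20% and 5.88%, and the kappa B pattern in 5.08%, 5.34% and 5.86%. Among all 32851 windows of the table, expressed or not, the shares were 20.8% for the half-site, 1.79% for the full element, 7.81% for the AP-1 site and 4.26% for the kappa B pattern. Over all tested genes, the called ones thus held these letters about as often as the genes not called, and a match is a description of sequence and not a bound site.

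Genes of cyclic AMP and G protein signalling moved in either direction, with a median of 0.39. Of 38 tested (39 with values) 16 were higher and 9 lower (65.8% called, 48.4% over all genes). Without pentoxifylline replicate 1 the higher count was 10. Crem encodes a factor that cyclic AMP itself induces. It stood at 422 and 473 RPKM with pentoxifylline, at 78.2 and 140 in the libraries labelled c-Rel-/- and at 147 and 135.5 with water (log2 difference 2.09, SE 0.26, adjusted p = 0.000978). Sik1, a kinase that restrains CREB co-activators, was higher at 92.8 and 62.4 RPKM with pentoxifylline against 26.7 and 23 in c-Rel-/- libraries (log2 difference 1.60), and Rapgef3, which encodes the cyclic AMP sensor Epac, at 15.4 and 10.4 RPKM with pentoxifylline against 1.40 and 1.86 in c-Rel-/- libraries (log2 difference 2.64). Crem, Sik1 and Rapgef3 were picked after their values were seen. The receptors that raise cyclic AMP were split, with the adenosine receptor Adora2a (1.32) higher and the prostaglandin receptors Ptger2 (-1.12) and Ptger4 (-0.85) lower. Rgs16, a relative of Rgs2, moved the other way and stood at 16.5 and 19.7 with pentoxifylline, at 122 and 131 in those labelled c-Rel-/- and at 78.8 and 109.6 with water (log2 difference -2.78, SE 0.18, adjusted p = 0.000298).

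Of 11 phosphodiesterase genes tested (of 16 with values) 6 were higher and 1 lower, with a median of 1.05, which was 0.65 without pentoxifylline replicate 1 and 0.58 with no filter on low values. Pde4d degrades cyclic AMP and is induced by it. It stood at 92.9 and 94.3 RPKM with pentoxifylline, at 16.1 and 23.3 in the libraries labelled c-Rel-/- and at 22 and 22 with water (log2 difference 2.24, SE 0.18, adjusted p = 0.000301). Pde4b (1.45), Pde7a (1.09) and Pde8a (1.07), all specific for cyclic AMP, were also higher, as was Pde6d (0.61), a subunit that binds prenyl groups and breaks down no cyclic nucleotide. Pde12, which cleaves short adenylate chains and not cyclic nucleotides, was the lower member at 12.9 and 13.8 RPKM with pentoxifylline against 23.8 and 23.9 in c-Rel-/- libraries (log2 difference -0.81, SE 0.14, adjusted p = 0.00301). Pde3b was not called, and its libraries labelled c-Rel-/- stood far apart, at 7.76 and 9.17 with pentoxifylline, at 21.7 and 7.03 in those labelled c-Rel-/- and at 2.265 and 2.67 with water (adjusted p = 0.344). Without c-Rel-/- replicate 2 the lower phosphodiesterases were 2.

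Of the 5 NF-kB subunits Rel was higher and 2 were lower, with a median of -0.22. Nfkb1, which encodes p50, was lower at 196 and 209.9 RPKM with pentoxifylline against 323 and 298 in the libraries labelled c-Rel-/- and 252 and 302 with water (log2 difference -0.61, SE 0.16, adjusted p = 0.0187). Relb stood at 65.7 and 54.9 with pentoxifylline, at 104 and 75.9 in those labelled c-Rel-/- and at 53.4 and 58.8 with water (log2 difference -0.56, SE 0.18, adjusted p = 0.0394). Neither of the lower calls was stable. Nfkb1 missed the threshold without any single one of the 4 libraries compared (adjusted p from 0.053 to 0.112), and Relb in 7 of 14 settings, at the most without c-Rel-/- replicate 1 (adjusted p = 0.23).

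Of 18 NF-kB inhibitors and feedback genes tested 5 were higher and 4 lower (50% called, 48.4% over all genes), with a median of 0.09. Tnfaip3 (chromosome 10, 19000910 to 19015657, minus strand) encodes the inhibitor A20. It stood at 628 and 439 RPKM with pentoxifylline, at 59.4 and 68.2 in the libraries labelled c-Rel-/- and at 85.1 and 80.35 with water (log2 difference 3.04, SE 0.19, adjusted p = 0.000298). Its pentoxifylline libraries were more than 5-fold above each of the others, while Nfkbia, the classical inhibitor and NF-kB target, stood at 200.2 and 236.5 RPKM with pentoxifylline against 194 and 203 in c-Rel-/- libraries (adjusted p = 0.502). Birc2, a ubiquitin ligase of the pathway, was higher at 53.5 and 44.3 RPKM with pentoxifylline against 20.8 and 24 in c-Rel-/- libraries (log2 difference 1.11, SE 0.16, adjusted p = 0.00173). Nfkbid, a nuclear member of the inhibitor family, was lower at 20.3 and 17.5 with pentoxifylline, against 130.4 and 86.8 in those labelled c-Rel-/- and 53.8 and 57.4 with water (log2 difference -2.47, SE 0.20, adjusted p = 0.000318). Tnip2, a partner of A20, was lower at 8.18 and 6.375 RPKM with pentoxifylline against 16.5 and 13.1 in c-Rel-/- libraries (log2 difference -0.98, SE 0.18, adjusted p = 0.00413).

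Early genes of T cell receptor stimulation and of feedback on the kinase ERK were mostly lower, with 14 lower and 3 higher of 23 tested and a median of -1.12, beside 26.8% lower and 21.6% higher over all genes. Spry1 encodes an ERK feedback inhibitor. It stood at 8.41 and 12.8 RPKM with pentoxifylline, at 152 and 104 in the libraries labelled c-Rel-/- and at 58.5 and 76.4 with water (log2 difference -3.54, SE 0.26, adjusted p = 0.000298). Nr4a1 encodes an orphan receptor that reports T cell receptor signals. It stood at 138 and 150.4 with pentoxifylline, at 633 and 524 in those labelled c-Rel-/- and at 375 and 490 with water (log2 difference -1.99, SE 0.20, adjusted p = 0.000486). Myc encodes a growth regulator induced by stimulation. It stood at 25.4 and 47.2 RPKM with pentoxifylline, at 271 and 210.3 in c-Rel-/- libraries and at 157 and 219 with water (log2 difference -2.77, SE 0.31, adjusted p = 0.000657) and was picked after its values were seen. For these 3 genes the pentoxifylline libraries were lowest of the 6, and in Spry1 and Nr4a1 the libraries labelled c-Rel-/- were also above both water libraries.

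The phosphatases of the family split, since Dusp6, which acts on ERK in the cytoplasm, was lower at 4.29 and 3.91 RPKM with pentoxifylline against 26.5 and 22.9 in c-Rel-/- libraries (log2 difference -2.45, SE 0.20, adjusted p = 0.000334) while Dusp10, which acts on the kinases p38 and JNK, was higher at 186 and 159 RPKM with pentoxifylline against 33.9 and 23.1 in c-Rel-/- libraries (log2 difference 2.60, SE 0.20, adjusted p = 0.000301). Dusp1, a nuclear phosphatase of the same kinases, was higher too, at 116 and 106 RPKM with pentoxifylline against 37.7 and 50.5 in c-Rel-/- libraries (log2 difference 1.33, SE 0.16, adjusted p = 0.000914). In the same list Dusp4 (0.82) was also higher, Dusp2 (-1.87) was lower and Dusp5 (0.11) was not called. Whether direction followed the kinase acted on was not tested. Of 13 AP-1 genes tested 3 were higher and 5 lower, with a median of -0.36, which was 0.03 without c-Rel-/- replicate 2. Fosl2 encodes the Fos-related protein Fra-2. It stood at 344 and 287 RPKM with pentoxifylline, at 52.9 and 66.9 in the libraries labelled c-Rel-/- and at 76.6 and 65.6 with water (log2 difference 2.39, SE 0.18, adjusted p = 0.000298). Jdp2, a repressor of the family, was higher at 11.5 and 7.185 RPKM with pentoxifylline against 0.701 and 1.13 in c-Rel-/- libraries (log2 difference 2.78, SE 0.27, adjusted p = 0.00044). The stress factor Atf3 was lower at 6.27 and 4.88 RPKM with pentoxifylline against 36.9 and 27.95 in c-Rel-/- libraries (log2 difference -2.43, SE 0.30, adjusted p = 0.000967), and Fosb was lower at 2.44 and 1.76 RPKM with pentoxifylline against 5.07 and 6.16 in c-Rel-/- libraries (log2 difference -1.24, SE 0.20, adjusted p = 0.00265).

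Cytokines of helper T cells and ligands of the TNF family were mostly lower, with 15 lower and 1 higher of 22 tested (of 26 with values) and a median of -1.67. Tnf encodes an inflammatory cytokine. It stood at 3.41 and 7.52 RPKM with pentoxifylline, at 112 and 70.5 in the libraries labelled c-Rel-/- and at 44.9 and 56.1 with water (log2 difference -4.0, SE 0.35, adjusted p = 0.000346). Cd40lg licenses B cells and dendritic cells. It stood at 6.085 and 11 with pentoxifylline, at 91.2 and 50.7 in those labelled c-Rel-/- and at 23.3 and 41 with water (log2 difference -2.98, SE 0.39, adjusted p = 0.00111). Il2 encodes the T cell growth factor. It stood at 0.0612 and 0.07115 RPKM with pentoxifylline, at 11.45 and 3.41 in c-Rel-/- libraries and at 1.84 and 3.89 with water (log2 difference -3.59, SE 0.53, adjusted p = 0.00171). In Tnf and Cd40lg the libraries labelled c-Rel-/- were also above both water libraries. Il17a (-2.63), Il13 (-2.81) and Il4 (-2.12), which mark different helper lineages, were lower as well, and Il2 and these 3 were picked after their values were seen. Tnfsf9, the ligand of 4-1BB, was the higher member at 5.11 and 5.61 RPKM with pentoxifylline against 2.03 and 3.14 in c-Rel-/- libraries (log2 difference 0.95, SE 0.22, adjusted p = 0.0118), and it missed the threshold without pentoxifylline replicate 2 (adjusted p = 0.0513, leaving 0 genes higher) or c-Rel-/- replicate 1 (adjusted p = 0.0575).

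Of 16 chemokine ligand genes with values 9 were tested, with 5 lower and 1 higher and a median of -4.28, which was -0.01 over all 16 when no filter on low values was used. Xcl1, which attracts cross-presenting dendritic cells, joined the 4 chemokines above at 0.8035 and 0.935 RPKM with pentoxifylline, at 21.6 and 31.6 in the libraries labelled c-Rel-/- and at 27.1 and 54.7 with water (log2 difference -4.28, SE 0.33, adjusted p = 0.000301). Ccl5, which attracts T cells, was the higher member, at 14.5 and 13.1 with pentoxifylline, at 1.03 and 3.73 in those labelled c-Rel-/- and at 6.71 and 13.2 with water (log2 difference 2.49, SE 0.48, adjusted p = 0.00509). Ccl22, a ligand of Ccr4 picked after its values were seen, was low in both groups compared, at 0.0636 and 0.703 with pentoxifylline and at 0.0276 and 0.444 in those labelled c-Rel-/-, against 7.77 and 30.2 with water. Without c-Rel-/- replicate 2 the chemokine genes called higher were 2. The difference of Ccl22 between the first 2 groups was 0.22 (SE 0.65, adjusted p = 0.794).

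**Figure D2:**
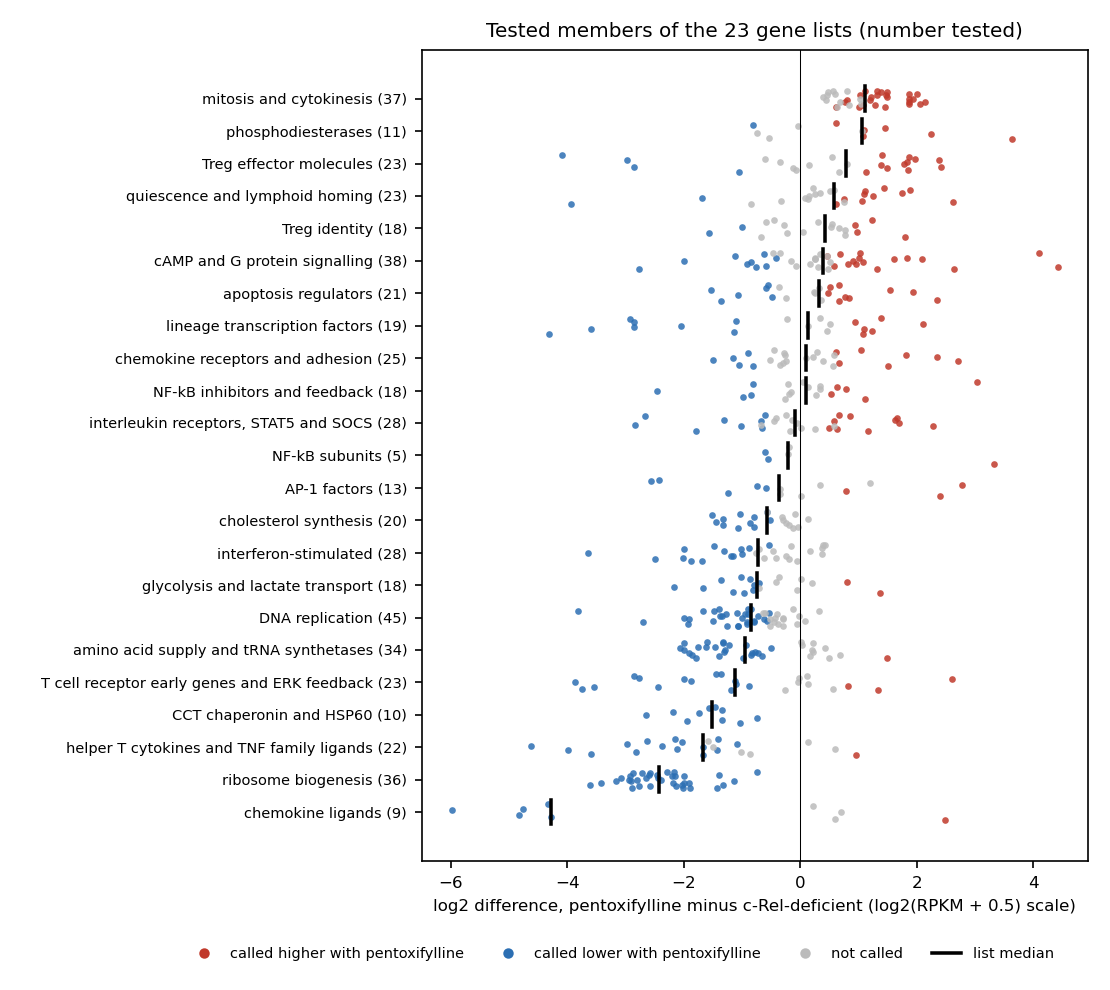
Log2 difference, pentoxifylline minus c-Rel-/-, of every tested member of the 23 gene lists, with the number tested in brackets and the median as a black bar. Red points were called higher and blue points lower, and the medians run from -4.28 for chemokine ligands to 1.11 for mitosis and cytokinesis.

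Of 18 Treg identity genes tested 4 were higher and 2 lower, or 33.3% called beside 48.4% of all genes, with a median of 0.42. Lrrc32 presents latent TGF-beta. It stood at 613 and 548 RPKM with pentoxifylline, at 122 and 228 in the libraries labelled c-Rel-/- and at 302 and 309.8 with water (log2 difference 1.79, SE 0.28, adjusted p = 0.00224). Tnfrsf9 encodes the receptor 4-1BB. It stood at 1625 and 2244 with pentoxifylline, at 628 and 1043 in those labelled c-Rel-/- and at 1090 and 1215 with water (log2 difference 1.24, SE 0.32, adjusted p = 0.0158). Gpr83, an orphan receptor of Tregs, was lower at 20.6 and 31.8 RPKM with pentoxifylline against 65.8 and 89.3 in c-Rel-/- libraries (log2 difference -1.56, SE 0.23, adjusted p = 0.00173), and Capg, an actin-capping protein, at 185 and 219 RPKM with pentoxifylline against 324 and 501 in c-Rel-/- libraries (log2 difference -1.0, SE 0.24, adjusted p = 0.0124). Ctla4 (0.31), Ikzf2 (0.55), Il2ra (-0.68) and Tnfrsf18 (0.53), all core Treg genes, were not called. The counts turned on the c-Rel-/- libraries, with 1 higher and 5 lower without replicate 1 (median 0.03) and 8 higher and 1 lower without replicate 2 (median 0.74). Leaving out a pentoxifylline library gave 2 higher and 1 lower (replicate 1) or 1 higher (replicate 2), when Capg (adjusted p = 0.0832) and Tnfrsf9 (adjusted p = 0.0973) missed the threshold in turn.

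Effector molecules of Tregs showed 11 higher and 4 lower of 23 tested (65.2% called, 48.4% over all genes), with a median of 0.79. Lag3 (chromosome 6, 124904361 to 124911705, minus strand) binds class II molecules and inhibits. It stood at 7.77 and 9.87 RPKM with pentoxifylline, at 210.3 and 119 in the libraries labelled c-Rel-/- and at 90.7 and 72.5 with water (log2 difference -4.10, SE 0.27, adjusted p = 0.000298). Irf4 encodes a factor of effector Tregs. It stood at 21.6 and 34 with pentoxifylline, at 249.5 and 158 in those labelled c-Rel-/- and at 103 and 134 with water (log2 difference -2.85, SE 0.29, adjusted p = 0.000488). Il10, the suppressive cytokine, was lower at 24.5 and 14.4 RPKM with pentoxifylline against 131 and 176 in c-Rel-/- libraries (log2 difference -2.98, SE 0.31, adjusted p = 0.000555; picked after its values were seen). In Lag3 and Irf4 both libraries labelled c-Rel-/- were also above both water libraries. Havcr2, the inhibitory receptor TIM-3, was higher at 22.7 and 19.6 with pentoxifylline, against 5.48 and 5.43 in those labelled c-Rel-/- and 9.63 and 12.2 with water (log2 difference 1.86, SE 0.17, adjusted p = 0.000355). Cd86, a costimulatory ligand usually of antigen-presenting cells, was higher at 32 and 32.5 RPKM with pentoxifylline against 9.46 and 15 in c-Rel-/- libraries (log2 difference 1.40, SE 0.21, adjusted p = 0.00189). The inhibitory receptors Pdcd1 (1.39) and Klrg1 (1.84), the interleukin 33 receptor Il1rl1 (1.79) and Ebi3 (1.84), a chain of interleukin 35, were higher too, so that inhibitory and effector genes did not share 1 direction. The higher count was 6 without pentoxifylline replicate 2, and the lower count was 7 without c-Rel-/- replicate 1, when the median was 0.21. The median was 1.42 without c-Rel-/- replicate 2.

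Lineage transcription factors were split, with 6 higher and 8 lower of 19 tested (73.7% called, 48.4% over all genes). Their median was 0.13, -0.14 without c-Rel-/- replicate 1 and -0.08 without pentoxifylline replicate 2. Irf8 (chromosome 8, 120736358 to 120756694, plus strand) encodes a partner of AP-1 factors in lymphoid and myeloid cells. It stood at 4.82 and 9.93 RPKM with pentoxifylline, at 136 and 161 in the libraries labelled c-Rel-/- and at 75.9 and 150.3 with water (log2 difference -4.32, SE 0.38, adjusted p = 0.000351). Id3, an inhibitor of E proteins, was lower at 7.98 and 9.28 RPKM with pentoxifylline against 39.5 and 34.9 in c-Rel-/- libraries (log2 difference -2.05, SE 0.18, adjusted p = 0.000341). Tbx21 (-3.60), which encodes T-bet, was lower, and Gata3 (0.51), the Th2 factor, was not called. Rora, a nuclear receptor of tissue Tregs and helper cells, was higher at 9.20 and 5.38 RPKM with pentoxifylline against 0.947 and 1.62 in c-Rel-/- libraries (log2 difference 2.11, SE 0.31, adjusted p = 0.00171), as was Runx3, a factor of cytotoxic cells, at 55.65 and 50.7 RPKM with pentoxifylline against 20.3 and 24.3 in c-Rel-/- libraries (log2 difference 1.24, SE 0.14, adjusted p = 0.00079). The higher count was 3 without pentoxifylline replicate 1. Eomes, a factor of cytotoxic cells, was called (-2.92) at 0.473 and 0.403 RPKM with pentoxifylline against 19 and 2.09 in c-Rel-/- libraries, which stood far apart.

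Quiescence and lymphoid homing genes were more often higher, with 10 higher and 2 lower of 23 tested (52.2% called, 48.4% over all genes). Their median was 0.57, and 0.19 without c-Rel-/- replicate 2. S1pr1 encodes the receptor for exit from lymphoid organs. It stood at 329 and 349.5 RPKM with pentoxifylline, at 85.7 and 97.7 in the libraries labelled c-Rel-/- and at 88.2 and 90.5 with water (log2 difference 1.88, SE 0.14, adjusted p = 0.000298). Tsc22d3 encodes a glucocorticoid-induced repressor. It stood at 407 and 273 with pentoxifylline, at 63.7 and 45.9 in those labelled c-Rel-/- and at 49.1 and 39.8 with water (log2 difference 2.61, SE 0.24, adjusted p = 0.000378). Klf2 drives S1pr1. It stood at 587 and 533 RPKM with pentoxifylline, at 232 and 185 in c-Rel-/- libraries and at 153 and 142 with water (log2 difference 1.43, SE 0.17, adjusted p = 0.000884). In these 3 genes both pentoxifylline libraries were the highest of the 6. Igfbp4, found in naive T cells, went against the rest at 4.07 and 6.29 with pentoxifylline, at 117 and 61.9 in those labelled c-Rel-/- and at 15.9 and 26.4 with water (log2 difference -3.94, SE 0.36, adjusted p = 0.000367). Dapl1, another gene of naive T cells, was lower at 1.00 and 1.28 RPKM with pentoxifylline against 8.18 and 2.71 in c-Rel-/- libraries (log2 difference -1.69, SE 0.43, adjusted p = 0.016), which was lost without pentoxifylline replicate 1 (adjusted p = 0.0752). Tcf7 encodes a factor of naive and memory T cells. It stood at 154 and 192 RPKM with pentoxifylline, at 459 and 207 in c-Rel-/- libraries and at 129 and 143 with water and was not called (adjusted p = 0.076).

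Of 25 chemokine receptor and adhesion genes tested (of 29 with values) 7 were higher and 5 lower (48% called, 48.4% over all genes). Their median was 0.09, -0.12 without c-Rel-/- replicate 1 and -0.30 without pentoxifylline replicate 2. Cxcr4 encodes a homing receptor for bone marrow and lymphoid tissue. It stood at 258 and 178 RPKM with pentoxifylline, at 31.2 and 33.5 in the libraries labelled c-Rel-/- and at 49.8 and 51 with water (log2 difference 2.71, SE 0.19, adjusted p = 0.000298). Itgb3 encodes an integrin beta chain that pairs with the alpha chain of Itgav. It stood at 79.8 and 79 with pentoxifylline, at 16.8 and 13.7 in those labelled c-Rel-/- and at 10.8 and 13.7 with water (log2 difference 2.35, SE 0.17, adjusted p = 0.000298). In both genes the pentoxifylline libraries were more than 3-fold above all others. Cxcr5, which leads to B cell follicles, was lower at 4.43 and 5.33 RPKM with pentoxifylline against 10.1 and 8.93 in c-Rel-/- libraries (log2 difference -0.90, SE 0.20, adjusted p = 0.00867), and Itgb2, the common chain of the leukocyte integrins, at 114 and 143 RPKM with pentoxifylline against 221 and 229 in c-Rel-/- libraries (log2 difference -0.81, SE 0.19, adjusted p = 0.0109). The lower count was 2 without pentoxifylline replicate 1, when Itgb2 missed the threshold (adjusted p = 0.08), and 2 without c-Rel-/- replicate 2. Without pentoxifylline replicate 2 there were 4 higher and 8 lower.

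Receptors of interleukins with their kinases and STAT factors were again split, with a median of -0.10. Of 28 tested 10 were higher and 8 lower (64.3% called, 48.4% over all genes). Stat4 carries interleukin 12 signals. It stood at 140.1 and 169.7 RPKM with pentoxifylline, at 45.95 and 49.25 in the libraries labelled c-Rel-/- and at 60.6 and 58.8 with water (log2 difference 1.69, SE 0.14, adjusted p = 0.000339). Stat5b carries interleukin 2 signals. It stood at 487 and 364 with pentoxifylline, at 130.2 and 137 in those labelled c-Rel-/- and at 145 and 137 with water (log2 difference 1.65, SE 0.18, adjusted p = 0.000601). Il12rb1, a receptor chain upstream of Stat4, was lower at 6.48 and 11.2 RPKM with pentoxifylline against 65.6 and 62.5 in c-Rel-/- libraries (log2 difference -2.84, SE 0.27, adjusted p = 0.000419), while Il12rb2, its partner chain, was higher (1.15). Il15ra, which presents interleukin 15, was lower at 2.59 and 3.14 RPKM with pentoxifylline against 13.6 and 9.07 in c-Rel-/- libraries (log2 difference -1.79, SE 0.22, adjusted p = 0.000933). The higher count was 6 without pentoxifylline replicate 2 and 6 without c-Rel-/- replicate 1.

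Apoptosis regulators showed 9 higher and 6 lower of 21 tested (71.4% called, 48.4% over all genes), with a median of 0.32. Both directions held genes that promote death and genes that protect. Pmaip1 encodes the death-promoting protein Noxa. It stood at 34.5 and 23.9 RPKM with pentoxifylline, at 3.71 and 7.35 in the libraries labelled c-Rel-/- and at 10.3 and 7.68 with water (log2 difference 2.35, SE 0.32, adjusted p = 0.0013). Bcl2, the survival protein, was higher at 90.0 and 80.3 RPKM with pentoxifylline against 48.9 and 50.6 in c-Rel-/- libraries (log2 difference 0.77, SE 0.13, adjusted p = 0.00287). Bid (-1.54) and Bax (-1.07), which promote death at the mitochondrion, were lower, as was the protective Bcl2a1d (-1.37), whose near-identical copies make its value uncertain. The higher count was 5 without pentoxifylline replicate 1 or 2 or c-Rel-/- replicate 1, and the lower count was 2 without pentoxifylline replicate 1 or c-Rel-/- replicate 2.

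Interferon-stimulated genes were lower in 14 and higher in 0 of 28 tested (of 34 with values), with a median of -0.73. The 50% called, all lower, stand beside 48.4% called and 26.8% lower over all genes. Bst2 tethers viruses at the cell surface. It stood at 25.95 and 32.2 RPKM with pentoxifylline, at 112 and 104 in the libraries labelled c-Rel-/- and at 78.9 and 131.5 with water (log2 difference -1.88, SE 0.24, adjusted p = 0.00104). Gbp4, a GTPase induced by interferon gamma, was lower at 19 and 23.3 RPKM with pentoxifylline against 48.3 and 46.8 in c-Rel-/- libraries (log2 difference -1.16, SE 0.14, adjusted p = 0.000938). The GTPases Iigp1 (-3.65) and Irgm1 (-2.50) were lower, while Isg15 (0.37) and Irf7 (0.38) were not called. The naming rule did not choose Iigp1, Irgm1, Isg15 or Irf7, and no split of the list by type of interferon was tested. Of the 28 tested 23 lay below 0 and 5 above. The lower count was 9 without pentoxifylline replicate 1, and 1 gene was higher without that library or without c-Rel-/- replicate 2.

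Genes of ribosome biogenesis were lower throughout, in 36 of 36 tested, with a median of -2.42. Gnl3 (chromosome 14, 31012433 to 31019152, minus strand) encodes the nucleolar protein nucleostemin. It stood at 10.3 and 10.5 RPKM with pentoxifylline, at 81.45 and 67.8 in the libraries labelled c-Rel-/- and at 62.2 and 64.1 with water (log2 difference -2.78, SE 0.14, adjusted p = 0.000298). Nop58 encodes a core protein of the box C/D nucleolar particles to which Snord69 belongs. It stood at 30.6 and 34.6 with pentoxifylline, at 186 and 176 in those labelled c-Rel-/- and at 135.5 and 159 with water (log2 difference -2.46, SE 0.15, adjusted p = 0.000298). Polr1b encodes a subunit of RNA polymerase I. It stood at 2.58 and 4.93 RPKM with pentoxifylline, at 52.9 and 35.6 in c-Rel-/- libraries and at 29.9 and 40.3 with water (log2 difference -3.42, SE 0.31, adjusted p = 0.000362) and was picked after its values were seen. In each of these genes the pentoxifylline libraries were the lowest of the 6 by a wide margin. The median level of the list relative to each gene's mean over the 6 libraries was -1.65 and -1.37 with pentoxifylline, 0.98 and 0.78 in the libraries labelled c-Rel-/-, and 0.46 and 0.80 with water. In bulk RNA, fewer cells of a kind and less RNA per cell cannot be told apart, and RPKM shows no change in total RNA per cell.

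Protein-folding genes of the CCT chaperonin and mitochondrial HSP60 went the same way, with 10 of 10 lower and a median of -1.51. Hspd1 encodes HSP60. It stood at 26.2 and 32.5 RPKM with pentoxifylline, at 201 and 169 in the libraries labelled c-Rel-/- and at 126 and 195 with water (log2 difference -2.64, SE 0.23, adjusted p = 0.000341). Cct6a, a chaperonin subunit, was lower at 63.6 and 75 RPKM with pentoxifylline against 247 and 219 in c-Rel-/- libraries (log2 difference -1.74, SE 0.18, adjusted p = 0.000555). Of 34 genes of amino acid supply and tRNA synthetases 24 were lower and 1 higher, with a median of -0.95. Slc1a5, a glutamine transporter, was lower at 39.6 and 43.4 with pentoxifylline, against 154 and 180.4 in those labelled c-Rel-/- and 153 and 145 with water (log2 difference -1.99, SE 0.14, adjusted p = 0.000298), and Rars, the arginyl-tRNA synthetase, at 20.9 and 24.7 RPKM with pentoxifylline against 86.7 and 81.1 in c-Rel-/- libraries (log2 difference -1.86, SE 0.17, adjusted p = 0.000362). Ddit3, the stress factor CHOP, was the higher member at 164 and 78.5 RPKM with pentoxifylline against 47.3 and 34.2 in c-Rel-/- libraries (log2 difference 1.48, SE 0.33, adjusted p = 0.00856), and 4 were higher without pentoxifylline replicate 2. Atf4 encodes a regulator of the amino acid response. It stood at 463 and 259 RPKM with pentoxifylline against 236 and 197 in c-Rel-/- libraries and was not called (adjusted p = 0.0712), and its pentoxifylline libraries differed widely.

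Glycolysis and lactate transport showed 10 lower and 2 higher of 18 tested (66.7% called, 48.4% over all genes), with a median of -0.75. Slc16a1 encodes a lactate transporter. It stood at 9.34 and 10.2 RPKM with pentoxifylline, at 50.1 and 42.2 in the libraries labelled c-Rel-/- and at 29.8 and 40.3 with water (log2 difference -2.18, SE 0.18, adjusted p = 0.000318). Slc16a3, another lactate transporter, was higher at 62.6 and 55.4 with pentoxifylline, against 18.2 and 27.6 in those labelled c-Rel-/- and 27.1 and 31.1 with water (log2 difference 1.37, SE 0.20, adjusted p = 0.00183). Pgk1, a glycolytic kinase, was lower at 10.8 and 12.1 RPKM with pentoxifylline against 33.3 and 27.2 in c-Rel-/- libraries (log2 difference -1.36, SE 0.16, adjusted p = 0.000782), a value that is uncertain because the gene has near-identical copies in the genome. The same holds for Gapdh, at 3.39 and 2.63 RPKM with pentoxifylline against 3.72 and 4.33 in c-Rel-/- libraries and not called, and for Eno1, at or below 0.0844 RPKM in every library and not tested, so the counts of the list are uncertain too. The glucose transporter Slc2a3 was higher at 23.9 and 18.5 RPKM with pentoxifylline against 10.5 and 13.2 in c-Rel-/- libraries (log2 difference 0.81, SE 0.18, adjusted p = 0.0091), but not without pentoxifylline replicate 1 (adjusted p = 0.0533) or c-Rel-/- replicate 1 (adjusted p = 0.0542). Of 20 cholesterol synthesis genes tested 11 were lower (55%, beside 26.8% over all genes) and 0 higher, with a median of -0.57. Sqle, the enzyme that makes squalene epoxide, was lower at 10.8 and 16.4 RPKM with pentoxifylline against 36.9 and 37.3 in c-Rel-/- libraries (log2 difference -1.45, SE 0.21, adjusted p = 0.00165), and Fdps, which makes farnesyl diphosphate, at 7.53 and 9.31 RPKM with pentoxifylline against 20.95 and 22.9 in c-Rel-/- libraries (log2 difference -1.33, SE 0.19, adjusted p = 0.00168). The cholesterol count was 5 without pentoxifylline replicate 1 and 7 without either library labelled c-Rel-/-.

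**Figure D3:**
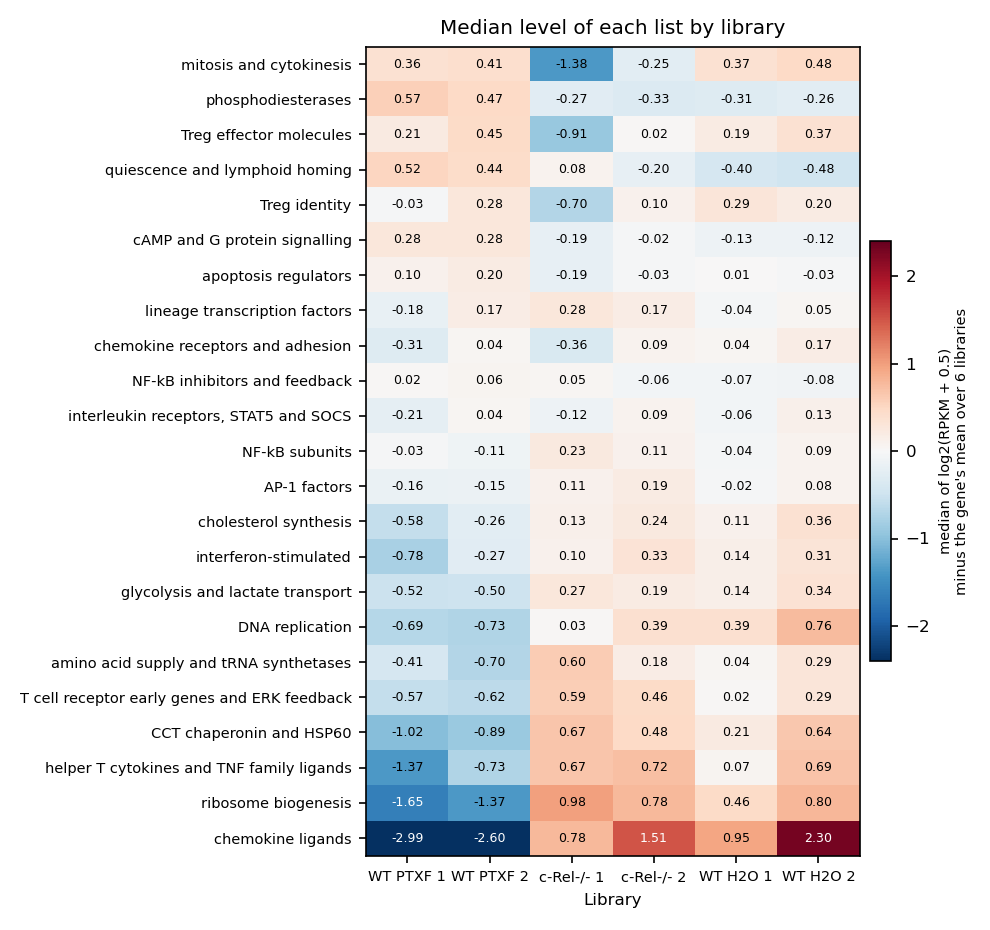
Median level of the tested members of each list in each library, as log2(RPKM + 0.5) minus the gene's mean over the 6 libraries, blue for low and red for high. Ribosome biogenesis is at -1.65 and -1.37 in the pentoxifylline libraries, and mitosis and cytokinesis is at -1.38 in c-Rel-/- replicate 1 but at -0.25 in replicate 2.

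The 2 cell cycle lists differed in opposite directions between the groups compared. Of 45 DNA replication genes tested 29 were lower and 0 higher, with a median of -0.84 and 43 below 0. Of 37 genes of mitosis and cytokinesis 25 were higher and 0 lower, with a median of 1.11 and 37 above 0. Relative to each gene's mean over the 6 libraries, replication genes had medians of -0.69 and -0.73 with pentoxifylline and 0.39 and 0.76 with water. Their medians in the libraries labelled c-Rel-/- were 0.03 and 0.39. Mitosis genes had 0.36 and 0.41 with pentoxifylline, 0.37 and 0.48 with water, and -1.38 and -0.25 in those labelled c-Rel-/-. Ung (chromosome 5, 114130386 to 114139323, plus strand) removes uracil from DNA. It stood at 1.94 and 2.01 RPKM with pentoxifylline, at 34.6 and 33.9 in the libraries labelled c-Rel-/- and at 21.8 and 35.5 with water (log2 difference -3.81, SE 0.22, adjusted p = 0.000298). Mcm2 encodes a subunit of the replicative helicase. It stood at 24.3 and 21.1 with pentoxifylline, at 93.1 and 91.2 in those labelled c-Rel-/- and at 65.9 and 105 with water (log2 difference -2.0, SE 0.22, adjusted p = 0.000628). For both genes the pentoxifylline libraries stood apart and the other 4 overlapped. The water mean lay nearer to the c-Rel-/- mean in 29 of the 29 replication genes called, beside 91.7% of all called genes.

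Among mitosis genes 2 patterns of the water libraries were seen. Cenpa encodes the histone of centromeres. It stood at 61.6 and 72.5 RPKM with pentoxifylline, at 12.4 and 23.6 in the libraries labelled c-Rel-/- and at 25.4 and 26.7 with water (log2 difference 1.93, SE 0.27, adjusted p = 0.00144). Ndc80 ties chromosomes to the spindle. It stood at 16.8 and 15 with pentoxifylline, at 4.63 and 6.21 in those labelled c-Rel-/- and at 7.29 and 7.09 with water (log2 difference 1.48, SE 0.18, adjusted p = 0.000843). Mki67 encodes a marker of proliferating cells. It stood at 25.2 and 21.1 RPKM with pentoxifylline, at 3.14 and 11 in c-Rel-/- libraries and at 21.5 and 17 with water (log2 difference 1.87, SE 0.46, adjusted p = 0.0142) and was picked after its values were seen. Cenpa and Ndc80, which the naming rule chose, are the 2 of the 25 called genes whose water mean lay nearer to the c-Rel-/- mean, and in the other 23 it lay nearer to pentoxifylline. Replicate 1 of the libraries labelled c-Rel-/- was below replicate 2 in each of these 3 genes. The number of mitosis genes called was 15 without that replicate (median 0.56), 37 without c-Rel-/- replicate 2, 7 without pentoxifylline replicate 1, 10 without pentoxifylline replicate 2 and 13 with no filter on low values.

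**Figure D4:**
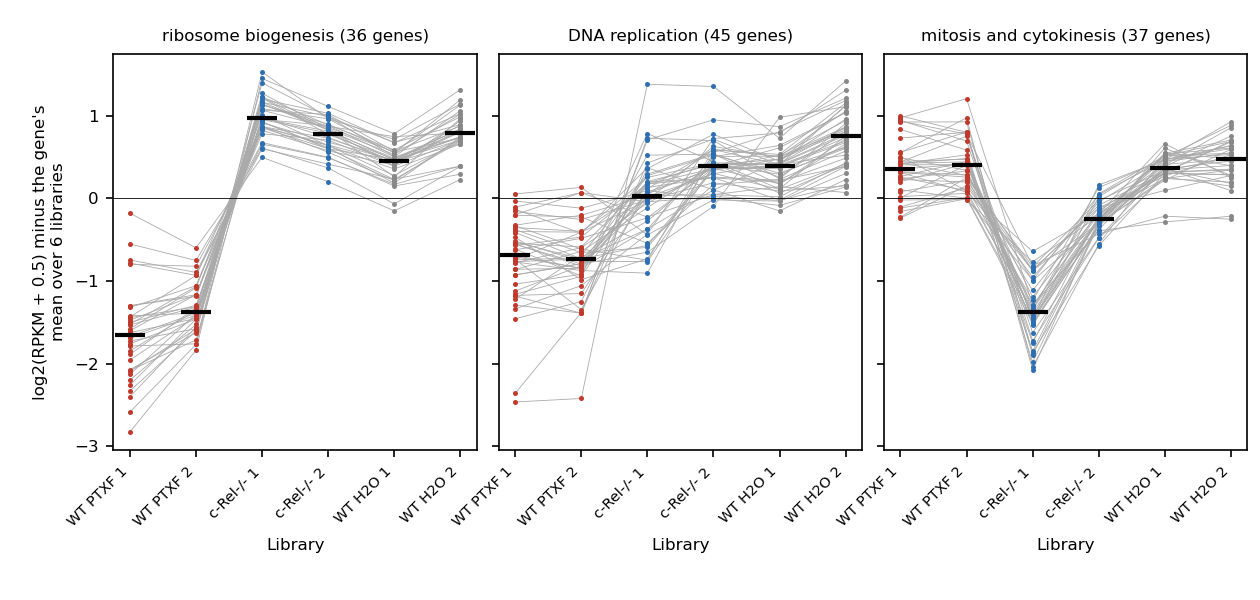
Level of each tested gene of ribosome biogenesis, DNA replication, and mitosis and cytokinesis in the 6 libraries, as log2(RPKM + 0.5) minus the gene's mean, with grey lines joining a gene and black bars for medians. Medians of replication genes are -0.69 and -0.73 with pentoxifylline, and those of mitosis genes are -1.38 and -0.25 in the libraries labelled c-Rel-/-.

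The libraries within a group differed as well. Of the 9945 tested genes 218 (2.19%) differed by over 2-fold between the pentoxifylline libraries, 305 (3.07%) between those labelled c-Rel-/- and 161 (1.62%) between the water libraries. Between those labelled c-Rel-/-, 223 of the 305 were higher in replicate 2, the library with more Rel. Rel was among the 5 genes with the widest gap in that direction, as was Slc15a2, and Orm2, an acute-phase protein, stood at 1.29 and 16.1 RPKM. In the other direction Ddr1, a collagen receptor, stood at 3.13 and 4.54 with pentoxifylline and at 26.6 and 0.782 in the libraries labelled c-Rel-/-. Jun encodes an AP-1 factor. It stood at 56.2 and 58 with pentoxifylline and at 49.3 and 12.3 in those labelled c-Rel-/-. Neither Ddr1 (adjusted p = 0.764) nor Jun (adjusted p = 0.0985) was called.

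Markers of other cell types differed in level between lists and groups. A value listed at 0 need not mean that a transcript was absent. Eno1, a glycolytic enzyme that every cell uses, was listed at 0 and 0.0377 RPKM with pentoxifylline, at 0.0844 and 0.0603 in c-Rel-/- libraries and at 0.0772 and 0.0814 with water. The summed level of 9 B cell markers was 5.71 and 6.32 RPKM with pentoxifylline, 5.38 and 5.16 in the libraries labelled c-Rel-/- and 7.76 and 10.8 with water, with 1 higher of 2 tested and Pax5, a defining factor of B cells, listed at 0 in the 4 libraries compared. For 13 myeloid and dendritic markers the sum was 6.30 and 16.6 RPKM with pentoxifylline, 3.37 and 4.15 in those labelled c-Rel-/- and 7.95 and 23.2 with water, with 1 higher of 4 tested and Csf1r, which defines macrophages, listed at 0 in both libraries labelled c-Rel-/-. For 6 NK and cytotoxic markers it was 8.66 and 10.4 with pentoxifylline, 16.3 and 35.5 in those labelled c-Rel-/- and 37.2 and 57.1 with water, with 1 lower of 2 tested. Of the 8 class II genes 3 were higher and 1 lower of 5 tested, and their sum was 67.3 and 55.3 RPKM with pentoxifylline, 66.5 and 61.9 in those labelled c-Rel-/- and 110.0 and 134 with water. H2-Aa, a class II chain, stood at 6.36 and 2.70 RPKM with pentoxifylline, at 1.45 and 1.25 in those labelled c-Rel-/- and at 13.6 and 17.6 with water (log2 difference 1.34, SE 0.34, adjusted p = 0.0161). The 5 plasma cell markers summed to 172 and 145 with pentoxifylline, 108 and 139 in those labelled c-Rel-/- and 140 and 150 with water, most of it from Xbp1, which activated T cells also express. Igj and Sdc1 (2.21) were the 2 higher of 3 tested, while Tnfrsf17, a receptor of plasma cells, was listed at 0 in pentoxifylline replicate 2 and in both libraries labelled c-Rel-/-. What part other cells had in the differences of Igj, Cd86 or the class II genes was not tested.

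Of 9 T cell markers tested 4 were lower and 0 higher, among them Lck (-1.13), the kinase at the T cell receptor. Cd8a and Cd8b1, the CD8 chains, summed to 10.9 and 13.7 RPKM with pentoxifylline, 15.2 and 10.1 in the libraries labelled c-Rel-/- and 11 and 11.4 with water, with no call in the 1 tested. The 2 erythroid markers with values stayed below 0.5 RPKM in sum in every library. None of 5 sex-linked genes was called. Of 14 stress and dissociation genes tested 3 were higher and 7 lower, with summed levels of 15 genes of 1402 and 1337 RPKM with pentoxifylline, 3464 and 2850 in those labelled c-Rel-/- and 2369 and 3124 with water. The chaperone Hsp90ab1 (-1.59) held over 50% of each of these sums. Gadd45a is a gene induced by DNA damage and stress. It stood at 33.1 and 31.2 with pentoxifylline, at 2.57 and 4.51 in those labelled c-Rel-/- and at 6.98 and 4.96 with water (log2 difference 3.06, SE 0.26, adjusted p = 0.000339) and was picked after its values were seen. What part cell stress had in the differences was not tested.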

How the data were processed

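RNA was sequenced from stimulated Tregs in 6 libraries, 2 in each of 3 groups, and the 13 libraries of sorted Tregs, deposited in a separately normalized table, were not used here. For each library the authors deposited RPKM per gene. Their table also gives p-values and log2 fold changes against water for the other 2 groups, per the file headers, all written with decimal commas that were read as points. STAR, DESeq2 1.10.1 and the build mm10 are named in the submitters' processing notes without a role, and the counter and annotation are not given in the sources used here. Of 14310 rows 20 held a date in place of a symbol and no values, which left 14290 genes. Low values lay on whole-read steps within 0.02 in 96.8% of 2282 low genes, from which relative scaling factors were taken. No read counts were used, so counting intervals are not given.

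The 9945 genes that reached 1 RPKM in 2 or more of the 6 libraries were tested on log2(RPKM + 0.5) with limma 3.58.1 (statmod 1.5.0, R 4.3.3), a trended empirical Bayes spread shared by all 6 libraries and Benjamini-Hochberg adjustment at 0.05. The scripts were tested on simulated data and also used Python 3.11.15, pandas 2.3.3, numpy 2.4.6, scipy 1.17.1 and matplotlib 3.10.9. Named genes were Rel, Rela and Foxp3, the 8 largest rises and 8 largest falls among genes without overlap whose higher group averaged 5 RPKM or more, and up to 2 called genes each way from each of 23 pathway lists. A further 10 lists held markers. Lists, rule and comparison were chosen with earlier results of these data known. Coordinates are from GENCODE M21 (GRCm38), and RefSeq promoter windows matched 11149 genes with values. The alternatives were other pseudocounts (0.1 and 1), no filter or one at 3 RPKM, median-of-ratios scaling, a robust spread, only the 4 libraries compared, a replicate block and each library left out. Adjusted p-values in the text are from the limma fit. A few list members are counted but not reported here by name.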

Additional observations from a re-analysis of the deposited data

How the results depend on the processing

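Against 4815 genes called in limma (2148 higher, 2667 lower), leaving out each library in turn gave between 3027 and 4580, with 1140 to 2012 higher and 1887 to 2572 lower, lowest without pentoxifylline replicate 1. Where a group kept 1 library, that library was assumed to vary like the other groups. The other pseudocounts, filters, spread and library set gave 4527 to 4824. Median-of-ratios scaling gave 4813, but its size factor was 1.01 in all 6 libraries, which nearly fixed this outcome in advance. A replicate block gave 5060 calls (2307 higher, 2753 lower). Deviations of same-numbered libraries correlated at 0.115 between pentoxifylline and c-Rel-/-, 0.402 between pentoxifylline and water and -0.065 between c-Rel-/- and water. The main fit paired no libraries, since so few pairs cannot show pairing and WT and c-Rel-/- cells cannot come from the same animal. Same-numbered pentoxifylline and water libraries also shared their pattern of Xist and Ddx3y, and whether they shared a source was not tested. Of the 87 called among the 89 named genes none reversed under any alternative, and the most, 7, lost their call without pentoxifylline replicate 1. Foxp3 passed under the replicate block (adjusted p = 0.0457) and without c-Rel-/- replicate 2, and missed under the others. The median of AP-1 factors, -0.36, ran from -0.47 to 0.031 across the libraries left out and reversed without c-Rel-/- replicate 2; the cause was not tested. The authors' deposited table holds no direct contrast of these groups, so its p-values were not run as an alternative. Read counts were not used, so the precision of weakly expressed genes is not given.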
